A study of Mus musculus with 4 samples.

Results

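The D, E, A and B cyclins are the regulatory subunits that switch on the cyclin-dependent kinases (CDKs) of the cell cycle. The 9 cyclin genes described here are *Ccnd1*, *Ccnd2*, *Ccnd3*, *Ccne1*, *Ccne2*, *Ccna1*, *Ccna2*, *Ccnb1* and *Ccnb2*. They were picked by gene name as D, E, A and B cyclins, with the germ line cyclin A1, and not by their values. They make up 9 of the 55820 loci in the deposited table, and all 9 were among the 20561 loci that passed the filter on low counts.

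Total RNA came from whole testes of male C57BL/6J mice at P10 (postnatal day 10), with 2 libraries from control mice and 2 from Mps1sKO mice. In Mps1sKO mice, floxed *Mps1* loses exons 6 to 8 under *Stra8*-Cre, a recombinase that acts in male germ cells from early spermatogonia onwards, so the somatic cells of the testis keep the gene. *Mps1*, listed in the table under its symbol *Ttk*, encodes a kinase of the spindle assembly checkpoint. The sources used here call the control genotype only control, without its *Mps1* and Cre alleles, and call the 2 libraries of a group biological replicates without saying whether each came from 1 mouse.

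A cyclin is made and destroyed at set points of the cell cycle, and its kinase partner is active only while the cyclin is bound. D cyclins act with *Cdk4* and *Cdk6* early in G1, E cyclins act with *Cdk2* at entry into S phase, A cyclins act in S phase and G2, and B cyclins act with *Cdk1* in mitosis. In the testis at this age, spermatogonia divide by mitosis, the first germ cells enter meiosis, and Sertoli cells, the somatic nurse cells of the tubule, are still dividing. Cyclin A1 is a germ line form that serves the meiotic divisions, whereas cyclin A2 is the form of mitotic cells.

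The upstream sequences of the B cyclins are shown as those of related genes with close fold changes. *Ccna2* and *Ccnd1* had fold changes close to these as well, but no upstream sequence was matched for them. Whether the sequences bear on the fold changes was not tested. Each stretch runs 5′ to 3′ on the strand of the gene, from 140 bases before to 10 bases after the start given by RefSeq for GRCm38.p6, at chr13:100786477-100786626 on the minus strand for *Ccnb1* and at chr9:70421545-70421694 on the minus strand for *Ccnb2*. Capitals mark the letters CCAAT (the CCAAT box), TTTGAA (the cell cycle homology region) and TTTAAA (a variant of it).
Ccnb1: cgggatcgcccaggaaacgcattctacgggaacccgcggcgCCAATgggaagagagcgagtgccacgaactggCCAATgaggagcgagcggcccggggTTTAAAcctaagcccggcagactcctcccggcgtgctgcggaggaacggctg
Ccnb2: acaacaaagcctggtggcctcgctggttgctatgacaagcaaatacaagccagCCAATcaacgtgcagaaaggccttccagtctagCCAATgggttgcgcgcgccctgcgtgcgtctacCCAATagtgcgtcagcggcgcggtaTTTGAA

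RefSeq upstream sequences were matched for 5 of the 9 cyclins, namely *Ccnb1*, *Ccnb2*, *Ccne1*, *Ccna1* and *Ccnd3*, the last with both of its starts. They were searched on both strands over 300 bases, from 250 before the start to 50 from it. *Ccnb1* held CCAAT starting at −99 and −67 and TTTAAA starting at −42. *Ccnb2* held CCAAT starting at −87, −54 and −21 and TTTGAA starting at −167, outside the stretch shown, and at 5. CCAAT was in 37.4% of 32851 windows of this length in the mouse table, TTTGAA in 17.9% and TTTAAA in 13.2%. *Ccne1* held no CCAAT, and had TTTAAA starting at −15. The GC box, GGGCGG, was in all 6 windows, with 1 to 4 copies, and in 35.7% of windows in the mouse table. *Ccna1* held CCAAT once, on the opposite strand at −107 to −103, and *Ccnd3* held it at 1 of its 2 starts, at −108. None of the 6 windows held the E2F letters TTTCCCGC, TTTGGCGC, TTTGCCGC or TTTCGCGC (2.26% of windows) or the E-box CACGTG (7.15% of windows). The motifs do not overlap one another in the 2 stretches shown. A match describes these letters only.

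The 4 libraries held 26819122 and 28607746 counts in control and 23311689 and 27093849 counts in Mps1sKO. The *Ttk* count was 750 and 940 in the control libraries but 302 and 326 in the Mps1sKO libraries, a log2 fold change of −1.26 (SE 0.13, adjusted p = 0.0461, edgeR's quasi-likelihood test). This count covers the whole gene, including exons that the deletion leaves in place. Germ cell genes (*Ddx4*, *Dazl*), Sertoli cell genes (*Sox9*, *Wt1*) and the Leydig cell gene *Cyp11a1* were detected in every library, as the label testis implies. The summed CPM (counts scaled to library size) of 10 germ cell markers were 1336 and 1601 in control and 1224 and 931 in Mps1sKO, 73.4% of control on average. Those of 12 Sertoli markers were 5326 and 5782 in control and 7100 and 6284 in Mps1sKO, 120.5% of control.

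No cyclin passed an adjusted p of 0.05 in edgeR's quasi-likelihood test, where 0.0292% of all tested loci passed as lower in Mps1sKO and 0.0% as higher. Adjusted p-values of the 9 cyclins ran from 0.494 for *Ccnb1* to 0.825 for *Ccnd3*. At an unadjusted p under 0.05, 5 cyclins were lower in Mps1sKO, against 5.37% of all tested loci. They were *Ccnb1*, *Ccna2*, *Ccne1*, *Ccne2* and *Ccnb2*, which act from entry into S phase to mitosis. At the same threshold 1 cyclin, *Ccnd2*, was higher, against 3.92% of all tested loci. DESeq2 also gave 0 cyclins at an adjusted p of 0.05 (0.194% of loci lower and 0.0453% higher), with 3 lower (1.69% of loci) and 1 higher (1.51% of loci) at an unadjusted p under 0.05. The unadjusted DESeq2 shares are over 35262 loci with any count and the adjusted ones over 15436. Neither base is that of the edgeR shares.

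Library by library, the values of 6 cyclins were lower in both Mps1sKO libraries than in both control libraries, and those of 1 were higher. Such a gap was seen in 21.1% of all tested loci in the lower direction and 20.3% in the higher direction. The median log2 fold change of the 9 cyclins was −0.28, and that of all tested loci was 0.00027. Under the study's thresholds of a fold change over 1.5 and p under 0.01, 0 cyclins passed, against 0.681% of loci lower and 0.146% higher. The study relaxed its thresholds to 1.2 and 0.05 only for genes that were higher, and there 1 cyclin passed by edgeR (3.09% of loci). Applied here to lower genes as well, these limits gave 5 (4.95% of loci). DESeq2, the method of the study, gave 3 lower (582 of 35262 loci) and 1 higher (475 of 35262 loci) under the same limits. With whole testes, fewer cells of a type and less RNA per cell cannot be told apart in any of these values.

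**Figure D1:**
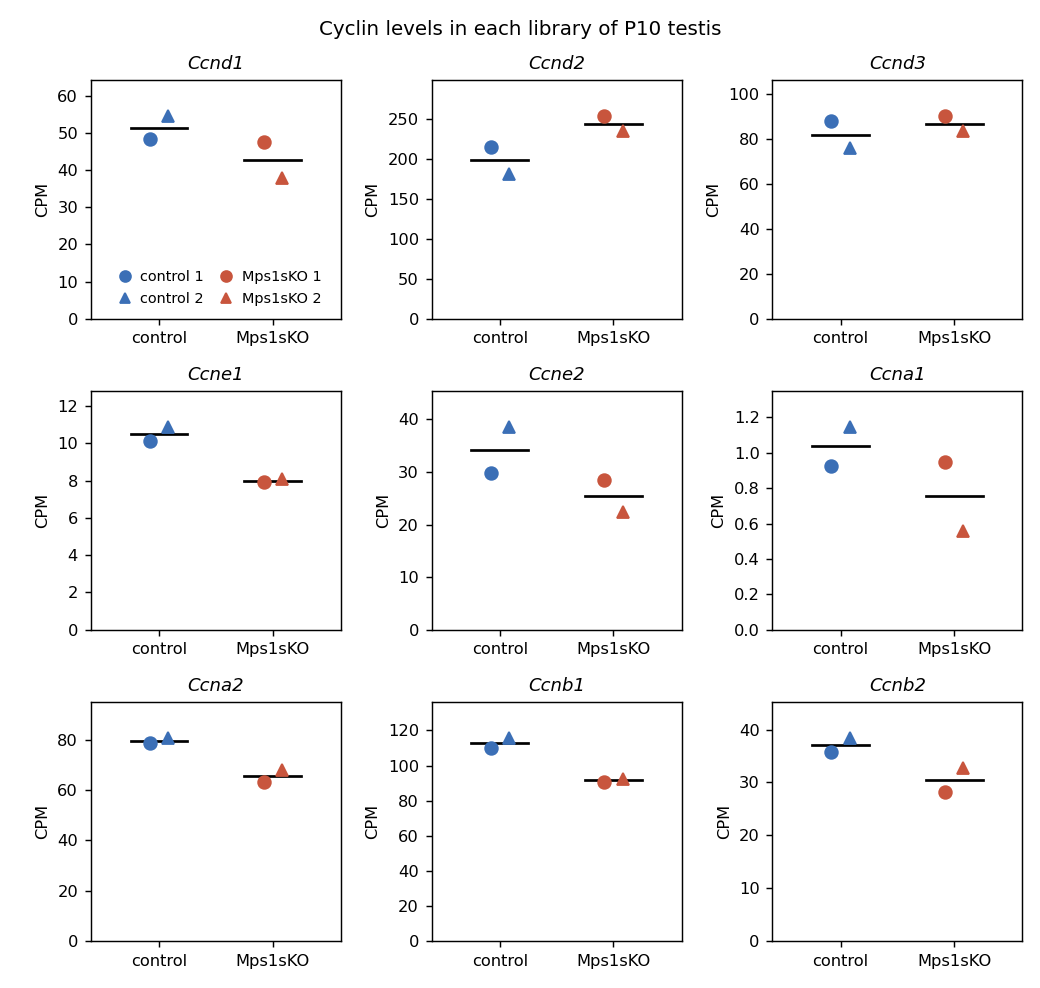
CPM of each cyclin (vertical axes from 0, a different scale in each panel) in control (blue) and Mps1sKO (red) testes, with circles for replicate 1, triangles for replicate 2 and lines for the mean of the 2 libraries. *Ccnd2* was higher in both Mps1sKO libraries, 6 cyclins were lower in both, and *Ccnd3* and *Ccna1* overlapped.

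*Ccnd2* (chr6:127125162-127152193, GRCm38) was the D cyclin with the highest FPKM in every library. It encodes cyclin D2, a D cyclin of Sertoli cells and of differentiating spermatogonia. Its level was 215 and 182 CPM in control and 254 and 235 CPM in Mps1sKO, a mean of 123% of control. Both Mps1sKO libraries were above both control libraries. The log2 fold change was 0.30 (SE 0.11, 95% interval 0.05 to 0.55), with an unadjusted p under 0.05 and an adjusted p of 0.507 by edgeR. Leaving out control replicate 2 brought it to 0.18 and leaving out Mps1sKO replicate 1 to 0.24, and neither value passed an unadjusted p of 0.05. Summed Sertoli marker CPM was also above control in both Mps1sKO libraries. *Clu*, the most abundant of these markers, made up 2900 and 3586 CPM of it in control and 4399 and 3319 CPM in Mps1sKO. Without *Clu* the sums were 2426 and 2196 CPM in control and 2701 and 2964 CPM in Mps1sKO. Mps1sKO replicate 2 had the highest value for 8 of the 11 tested Sertoli markers, whereas *Ccnd2* was highest in Mps1sKO replicate 1. The part of the Sertoli share in the *Ccnd2* value was not tested.

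*Ccnd1* (chr7:144929931-144939925), which encodes cyclin D1, moved the other way. Its level was 48.4 and 54.6 CPM in control and 47.5 and 38.0 CPM in Mps1sKO, 83.0% of control. The groups did not overlap, but Mps1sKO replicate 1 was within 1 CPM of control replicate 1. The log2 fold change was −0.27 (SE 0.13, 95% interval −0.57 to 0.03, adjusted p = 0.573 by edgeR). It became −0.12 without Mps1sKO replicate 2 and −0.44 without Mps1sKO replicate 1, so its size rests on which of the 2 knockout libraries is kept. *Ccnd3* (chr17:47505051-47599691), the gene of cyclin D3, had 88.1 and 75.9 CPM in control and 90.2 and 83.7 CPM in Mps1sKO. These values overlapped, with a log2 fold change of 0.08 (SE 0.11, 95% interval −0.16 to 0.33), which turned to −0.020 without control replicate 2.

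The make-up of the D cyclins can be read within each library, where depth cancels. *Ccnd2* held 52.9% and 48.8% of D cyclin FPKM (the deposited values, scaled to gene length and library size) in control and 56.9% and 58.6% in Mps1sKO. *Ccnd1* held 23.8% and 29.3% in control and 21.3% and 19.0% in Mps1sKO. Both shares were separated between the groups, in opposite directions, while that of *Ccnd3* overlapped. The log2 ratio of *Ccnd1* to *Ccnd2* counts was −2.15 and −1.73 in control and −2.42 and −2.63 in Mps1sKO, a difference of −0.58. The log2 ratio of *Ccnd3* to *Ccnd2* was −1.28 and −1.26 in control and −1.49 in both Mps1sKO libraries, a difference of −0.22. An exact two-sided permutation test gave p = 0.333 for each, the smallest value that 2 libraries against 2 allow. Leaving out 1 library at a time gave −0.79 to −0.37 for the first and −0.23 to −0.20 for the second. The sign could not turn in these fits, since both ratios were separated between the groups.

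The E cyclins had the lowest mean levels relative to control among the cyclins with more than 100 counts in every library. *Ccne1* (chr7:38097984-38107534), cyclin E1, had 10.1 and 10.9 CPM in control and 7.90 and 8.10 CPM in Mps1sKO, 76.2% of control. Replicates of each group lay close together, and the groups were apart. Its log2 fold change was −0.39 (SE 0.14, 95% interval −0.73 to −0.06, unadjusted p under 0.05, adjusted p = 0.511 by edgeR). It did not pass an unadjusted p of 0.05 in DESeq2 or with any of the 4 libraries left out. *Ccne2* (chr4:11191351-11204779), cyclin E2, had 29.9 and 38.5 CPM in control and 28.5 and 22.4 CPM in Mps1sKO, 74.5% of control. Its replicates were spread more widely, and control replicate 1 lay close to Mps1sKO replicate 1. The log2 fold change was −0.43 (SE 0.16, 95% interval −0.80 to −0.05, unadjusted p under 0.05, adjusted p = 0.515 by edgeR). Leaving out Mps1sKO replicate 1 gave −0.61, and leaving out control replicate 2 gave −0.23. It no longer passed an unadjusted p of 0.05 without control replicate 2 or without Mps1sKO replicate 2.

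The balance of the E cyclins showed no separation of the groups. The log2 ratio of *Ccne1* to *Ccne2* counts was −1.56 and −1.83 in control and −1.85 and −1.47 in Mps1sKO, with a difference of 0.032 (exact two-sided permutation p = 1, n = 2 and 2). The summed level of the E cyclins was 40.0 and 49.3 CPM in control and 36.4 and 30.5 CPM in Mps1sKO, 74.9% of control.

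Of the A cyclins, the mitotic form made up nearly all of the RNA. *Ccna2* (chr3:36564865-36572150), cyclin A2, had 78.6 and 80.6 CPM in control and 63.2 and 68.2 CPM in Mps1sKO, 82.5% of control. The groups were apart by more than the gap between replicates of either group. The log2 fold change was −0.28 (SE 0.09, 95% interval −0.49 to −0.06, unadjusted p under 0.05, adjusted p = 0.497 by edgeR). Of the 4 fits with 1 library left out, it passed an unadjusted p of 0.05 only in that without Mps1sKO replicate 2. *Ccna1* (chr3:55045469-55055501), the germ line form, was covered by only 25 and 33 counts in the control libraries and by 22 and 15 in the Mps1sKO libraries. At this depth the groups overlapped, with a log2 fold change of −0.47 (SE 0.37, 95% interval −1.34 to 0.39, adjusted p = 0.705 by edgeR), and an interval this wide includes both a lower and a higher level. The 15 genes of the meiotic prophase list, among them the synaptonemal complex genes *Sycp1* and *Sycp2*, had a median log2 fold change of −0.60, and 13 of them were lower at an unadjusted p under 0.05, against 5.37% of all tested loci.

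*Ccnb1* and *Ccnb2* were both lower, and *Ccnb1* had the smallest SE of the 9 cyclins. *Ccnb1* (chr13:100778650-100786570), cyclin B1, which drives entry into mitosis, had 110.0 and 115 CPM in control and 90.8 and 92.6 CPM in Mps1sKO, 81.4% of control. Replicates differed by much less than the groups did. The log2 fold change was −0.30 (SE 0.09, 95% interval −0.50 to −0.10, unadjusted p under 0.05, adjusted p = 0.494 by edgeR). *Ccnb2* (chr9:70407692-70421547), cyclin B2, the second B cyclin of dividing cells, had 35.8 and 38.3 CPM in control and 28.2 and 32.7 CPM in Mps1sKO, 82.3% of control. Its groups were apart too, with a log2 fold change of −0.28 (SE 0.11, 95% interval −0.54 to −0.02, unadjusted p under 0.05, adjusted p = 0.527 by edgeR). The ratio of *Ccnb1* to *Ccnb2* counts was 3.07 and 3.01 in control and 3.22 and 2.83 in Mps1sKO, overlapping, with a difference of −0.013 on the log2 scale (exact two-sided permutation p = 1, n = 2 and 2). Leaving out 1 library at a time gave −0.33 to −0.26 for *Ccnb1*, which lost an unadjusted p under 0.05 without control replicate 2, and −0.39 to −0.18 for *Ccnb2*, which kept it only without Mps1sKO replicate 2. *Ccnb2* did not pass it in DESeq2 either. The further B cyclin gene *Ccnb3*, not among the 9, was covered by 10 and 34 counts in control and by 8 and 17 in Mps1sKO, overlapping, with a log2 fold change of −0.65 (SE 0.60, adjusted p = 0.756 by edgeR).

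Summed over *Ccna2*, *Ccnb1* and *Ccnb2*, the level was 224 and 234 CPM in control and 182 and 194 CPM in Mps1sKO, 81.9% of control. The D cyclins together had 351 and 312 CPM in control and 391 and 356 CPM in Mps1sKO, 113% of control. Over all 9 cyclins the summed level was 98.2% of control, with *Ccnd2* alone at 123%.

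Markers of cell types differed between the groups alongside the cyclins. Of 10 germ cell markers, 9 were lower at an unadjusted p under 0.05, and of 7 markers of differentiating spermatogonia, 6 were, against 5.37% of all tested loci. The median log2 fold changes of these lists were −0.48 and −0.54, and that of 10 markers of undifferentiated spermatogonia was −0.13, with 3 lower at the same threshold. All 7 markers of differentiating spermatogonia had negative values, from −0.79 for *Stra8* to −0.24 for *Kit*, whose groups overlapped. The study uses *Stra8* as a marker of the start of meiosis, and *Prdm9* (−0.76), also on this list, was checked there by qPCR. This list is thus not specific to cells before meiosis. Within the germ cell list *Ddx4*, an RNA helicase of germ cells, had 196 and 221 CPM in control and 175 and 139 CPM in Mps1sKO, and *Dazl*, an RNA-binding protein of germ cells, had 466 and 583 CPM in control and 463 and 333 CPM in Mps1sKO. No marker of the germ cell lists was at 0 in any library. In the summed germ cell CPM the libraries ran from control replicate 2 at the top through control replicate 1 and Mps1sKO replicate 1 to Mps1sKO replicate 2, and *Ccnd1* and *Ccne2* ran in that same order. *Ccne1*, *Ccna2*, *Ccnb1* and *Ccnb2* instead had their lowest value in Mps1sKO replicate 1. The groups were apart for the sum and for each of these cyclins, so only the order within a group could vary. With 4 libraries, a shared or differing order cannot be read as a likeness. Of 11 tested Sertoli markers, 4 were higher at an unadjusted p under 0.05 (3.92% of loci were), with a list median of 0.26, and *Sox9* and *Wt1* had log2 fold changes of 0.26 and 0.18. *Rhox5*, the remaining Sertoli marker, had 1 count in 1 library and 0 in the others. Medians were 0.18 for the Leydig list, −0.09 for the peritubular myoid list, −0.07 for the macrophage list and 0.08 for the endothelial list, and none of their genes passed an unadjusted p of 0.05. For the first 2 genes of each remaining list, the log2 fold changes were −0.36 for *Zbtb16* and 0.10 for *Gfra1* (undifferentiated spermatogonia), −0.24 for *Kit* and −0.49 for *Sohlh1* (differentiating spermatogonia), −0.60 for *Sycp1* and −0.61 for *Sycp2* (meiotic prophase), and −0.66 for *Star* and 0.22 for *Cyp11a1* (Leydig cells). They were −0.12 for *Acta2* and −0.05 for *Myh11* (peritubular myoid cells), −0.16 for *Adgre1* and −0.13 for *Csf1r* (macrophages), and −0.07 for *Pecam1* and 0.16 for *Cdh5* (endothelial cells). The part of cell type shares in the cyclin values was not tested.

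**Figure D2:**
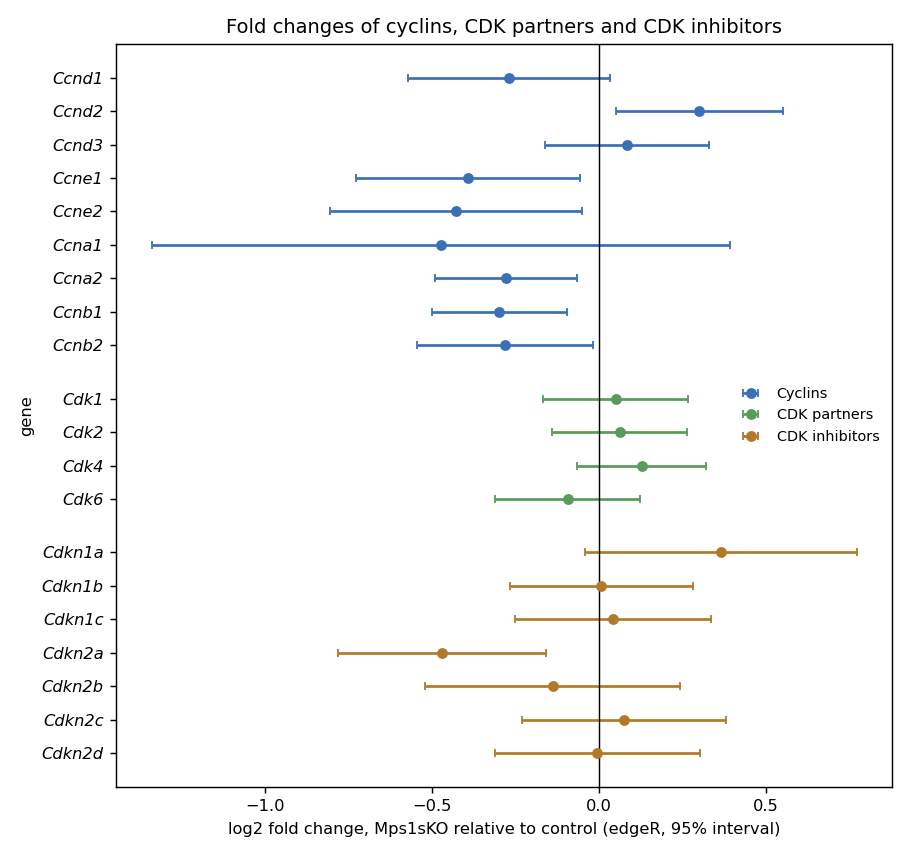
Log2 fold change of Mps1sKO relative to control (horizontal axis) for 9 cyclins (blue), 4 CDKs (green) and 7 CDK inhibitors (brown), with points for the edgeR estimate and bars for its 95% interval over 2 libraries a group. The intervals of 5 cyclins and of *Cdkn2a* lie below 0, that of *Ccnd2* lies above 0, and those of the 4 CDKs include 0.

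The kinases that these cyclins bind had log2 fold changes between −0.09 and 0.13. *Cdk1*, the partner of the B cyclins, had 48.1 and 50.2 CPM in control and 49.3 and 52.5 CPM in Mps1sKO. Its log2 fold change was 0.05 (95% interval −0.17 to 0.27), and that of *Cdk2*, the partner of the E and A cyclins, was 0.06 (95% interval −0.14 to 0.26). *Cdk4* had 0.13 (95% interval −0.07 to 0.32) and *Cdk6* had −0.09 (95% interval −0.31 to 0.12), both partners of the D cyclins. None of the 4 passed an unadjusted p of 0.05 in edgeR. Whether the cyclins and their partners differed from each other in fold change was not tested.

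Among the 7 CDK inhibitors, 1 was lower at an unadjusted p under 0.05, against 5.37% of all tested loci. This was *Cdkn2a*, the locus of p16 and p19ARF, with 31.7 and 39.5 CPM in control and 27.1 and 24.4 CPM in Mps1sKO. Its log2 fold change was −0.47 (SE 0.13, unadjusted p under 0.05, adjusted p = 0.494 by edgeR). *Cdkn1a*, which encodes p21, a target of p53, had 5.01 and 6.14 CPM in control and 7.38 and 7.02 CPM in Mps1sKO, with the groups apart and a log2 fold change of 0.37 (SE 0.17, adjusted p = 0.567 by edgeR). *Cdkn1b*, *Cdkn1c*, *Cdkn2b*, *Cdkn2c* and *Cdkn2d* had log2 fold changes of 0.01, 0.04, −0.14, 0.08 and −0.0046.

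Over all pathway lists, 70 of 72 genes were tested, and at an unadjusted p under 0.05, 10 were lower (5.37% of all tested loci were) and 1 was higher (3.92% of loci). At an adjusted p of 0.05 there were 0 in either direction, against 0.0292% and 0.0% of loci. *Skp2* was listed at 0 in every library and *Cntd2* was not among the names in the table. Of the 8 enzymes that activate or inhibit CDKs, 1 was lower at that threshold, *Cdc25c*, the phosphatase that activates CDK1, with a log2 fold change of −0.35 (SE 0.14). The next 2 by p, *Ccnh* and *Cdc25a*, had −0.07 and −0.06. Of 7 tested CKS and SCF genes, 1 was lower, *Cks2*, a small CDK-binding protein, with −0.33 (SE 0.10), while *Fbxo4* and *Fbxw7*, F-box proteins that mark cyclins for destruction, had 0.21 and −0.11.

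Transcription factors of the cell cycle genes were split in direction. Of 13 pocket protein and E2F genes, 1 was lower at an unadjusted p under 0.05, *E2f2*, with −0.52 (SE 0.15), while *Rbl2* had 0.25 and *E2f5* had −0.22. Of 8 MuvB, MYB and FOXM1 genes, which act at the cell cycle homology regions of late cell cycle genes, *Foxm1* was lower with −0.22 (SE 0.09), *Mybl1*, the germ line MYB gene, was higher with 0.25 (SE 0.11), and *Mybl2* had −0.18. All 6 proliferation markers had lower values in both Mps1sKO libraries, as did 21.1% of all tested loci, with a list median of −0.25. Of the 6, 3 passed an unadjusted p of 0.05, against 5.37% of loci. These were *Cdc20*, an activator of the anaphase-promoting complex, with −0.41 (SE 0.11), *Top2a*, DNA topoisomerase II alpha, with −0.39 (SE 0.13), and *Mki67*, which encodes Ki-67, with −0.30 (SE 0.12).

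Per gene length, the cyclins spanned a wide range of levels. In control the mean FPKM ran from *Ccnb1* at 26.5 through *Ccnb2* at 24.0, *Ccnd2* at 20.9, *Ccna2* at 19.4, *Ccnd1* at 10.8, *Ccne2* at 9.70, *Ccnd3* at 9.28 and *Ccne1* at 3.91 to *Ccna1* at 0.561. Neighbours whose control libraries overlapped were *Ccnd2* with *Ccna2*, *Ccnd1* with *Ccne2*, and *Ccne2* with *Ccnd3*, so their order is not set. In Mps1sKO the highest cyclin was *Ccnd2*, at 26.8 and 24.9 FPKM, followed by *Ccnb1* at 21.4 and 21.9. In control *Ccnb1* was first in both libraries, at 25.8 and 27.2, and *Ccnd2* ranked 3 or 4, at 22.6 and 19.2. The top place thus differed between the groups in all 4 libraries. Recomputing the values from counts and the same gene lengths only rescales each library, so it cannot change this order.

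**Figure D3:**
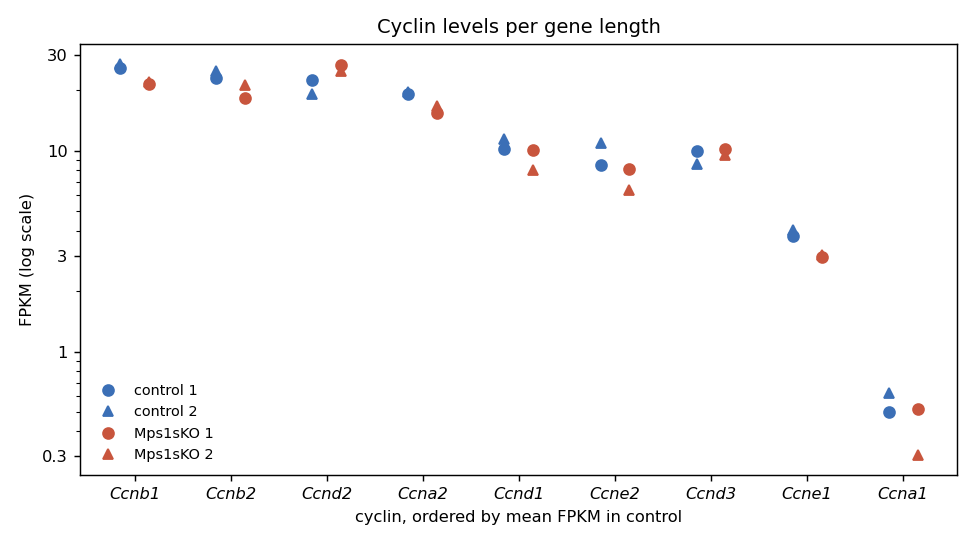
FPKM of each cyclin (vertical axis, log scale) in every library, ordered along the horizontal axis by the mean in control, with blue for control, red for Mps1sKO, circles for replicate 1 and triangles for replicate 2. *Ccnb1* leads in both control libraries, *Ccnd2* leads in both Mps1sKO libraries, and *Ccna1* lies lowest in all 4.

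Several cyclin counts can include reads of other loci. For *Ccnb1*, 7 pseudogenes aligned to it over at least 250 bases with at least 80% identity, led by *Ccnb1-ps* at 99.2%, and their counts came to between 3.67% and 4.38% of those of *Ccnb1*. Adding them moved the log2 ratio of mean CPM from −0.297 to −0.304. *Ccnb2-ps*, 84.6% identical to *Ccnb2* over 402 bases, was counted 123 and 110 times in the control libraries and 136 and 140 times in the Mps1sKO libraries, with a log2 fold change of 0.40 (SE 0.19, adjusted p = 0.560 by edgeR). It differed from *Ccnb2* in direction, and adding it moved *Ccnb2* from −0.28 to −0.19. *Ccnd3-ps* had 1 to 3 counts. Exons of 6 cyclins share bases with a gene on the opposite strand, the largest share being 23.4% of *Ccnd1* with *LTO1*, 17.4% of *Ccne2* with *Ints8* and 12.5% of *Ccna2* with *Exosc9*. The log2 fold changes of those neighbours were −0.04, −0.15 and −0.03. Whether counting used strand is not given in the sources used here, so reads of these overlaps may fall to either gene.

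The hold of single libraries on the cyclin values differed from gene to gene. *Ccnb1* moved least, between −0.33 and −0.26, and *Ccna1* moved most, between −0.89 and −0.13. Without control replicate 2, 0 cyclins were lower at an unadjusted p under 0.05 and 0 were higher, and of all loci in that fit 2.28% were lower and 1.49% higher. Without control replicate 1 there were 3 lower (5.55% of loci) and 1 higher (4.43% of loci). Without Mps1sKO replicate 1 there were 3 lower (6.99% of loci) and 0 higher (5.81% of loci), and without Mps1sKO replicate 2 there were 3 lower (5.62% of loci) and 1 higher (3.74% of loci). A single library then stands for 1 group, and its spread is taken from the other group. *Ccnd3* was the cyclin whose fold change turned sign in this series of fits. For cyclins whose groups were apart, leaving out a library could hardly turn the sign.

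**Figure D4:**
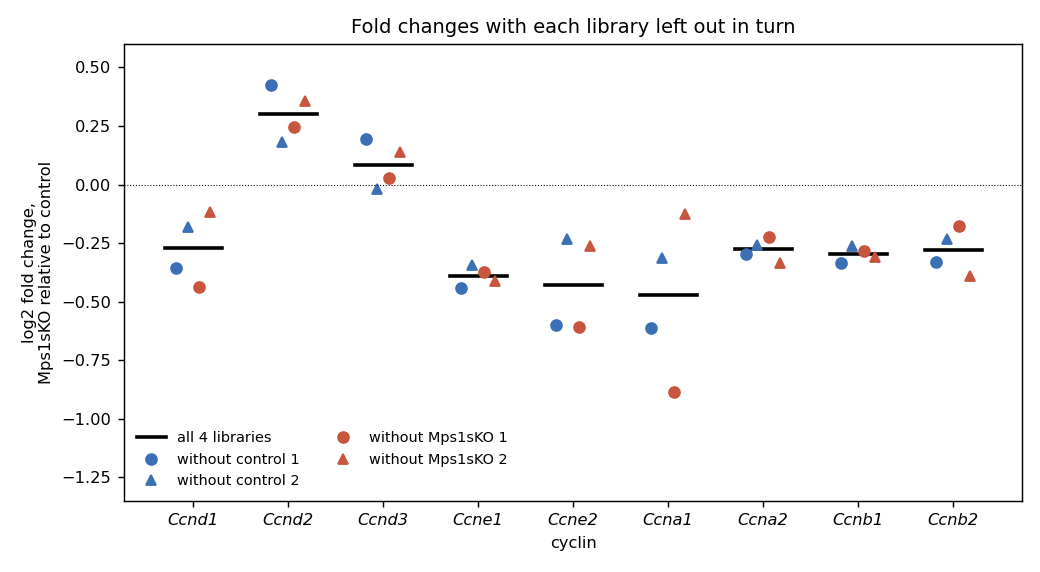
Log2 fold change of Mps1sKO relative to control (vertical axis) for each cyclin from all 4 libraries (black line) and with 1 library left out (blue for a control library and red for an Mps1sKO library, circles for replicate 1 and triangles for replicate 2). Values of *Ccnb1*, *Ccna2* and *Ccne1* stay close to the line, and those of *Ccna1* spread from −0.89 to −0.13.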

How the data were processed

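The genotype label placed 2 libraries in each group, control and Mps1sKO. The authors deposited 1 table of raw counts and FPKM values for 55820 loci, and the submitters' processing notes name HISAT2 2.0.5, featureCounts, DESeq2 1.16.1 and mm10. Strandedness, the treatment of multimapping reads and the annotation are not given in the sources used here, and the coordinates of all 9 cyclins matched GENCODE M21. The authors' FPKM values, scaled by gene length and library size, were used for levels and for 1 alternative, with a pseudocount of 1.

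Counts were filtered with filterByExpr, normalized by TMM and tested with edgeR 4.0.16 (R 4.3.3, quasi-likelihood test, Benjamini-Hochberg adjustment over 20561 loci, intervals from the t distribution). The test was also run on simulated data, with a dispersion shared by all genes and changes larger than those of the cyclins. That run does not cover changes of the size seen here. CPM used TMM-scaled totals. The p-values measure the spread between libraries, which may be partly technical. Alternatives used DESeq2 1.42.0, limma 3.58.1 and other filters and scalings. Copies were sought with BLAST 2.17.0, whose identity and length minima were lowered after the alignment of *Ccnb2-ps* was seen.

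The text names all 9 cyclins, *Ttk*, every CDK partner and inhibitor, up to 3 genes of smallest p from each other pathway list, and the first 2 genes of marker lists. The neighbours and copies of cyclins are named besides, as are *Ccnb3*, *Clu*, *Stra8* and *Prdm9*, chosen after their values were seen. The Sertoli sum without *Clu* was added likewise. The cyclins and all lists were chosen with earlier results of these data known.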

Additional observations from a re-analysis of the deposited data

How the results depend on the processing

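All 9 cyclins kept the sign of their fold change in 13 alternative settings, except *Ccnd3* without 1 library (range −0.020 to 0.19), and none passed an adjusted p of 0.05 in any of the 13. At an unadjusted p under 0.05 the main fit gave 5 cyclins lower (5.37% of loci). DESeq2 gave 3 (1.69% of loci) and the replicate block 1 (3.34% of loci). With a fold change over 1.2 as well, the lower count was 3 by DESeq2, where 582 of 35262 loci were lower. It was 3 by limma on FPKM (798 of 20561 loci) and 1 with the replicate block (686 of 20561 loci). With a fold change over 1.5 and p under 0.01, 0 cyclins passed in the alternatives that kept all 4 libraries. Leaving out libraries moved the log2 fold change of *Ccne2* between −0.61 and −0.23. Where the main fit gave 10 pathway genes lower at an unadjusted p under 0.05, DESeq2 gave 6 (1.69% of loci) and the replicate block 6 (3.34% of loci). With no filter on low counts, 3 (*Cdkn2a*, *Top2a* and *Cdc20*) passed an adjusted p of 0.05. That setting called 251 of 35262 loci lower and 139 higher, against 6 and 0 of 20561 in the main fit. The count of 1 higher pathway gene became 2 with RLE factors (4.09% of loci) and with robust dispersion (3.90% of loci). It became 0 by DESeq2, library size only, 10 counts in every library, limma-voom, limma on FPKM and the replicate block. In those settings 1.51% to 3.95% of loci were higher. With a fold change over 1.2 added, 9 pathway genes were lower in the main fit (4.95% of loci). The alternatives that kept all 4 libraries gave 6 to 9. In these, 582 of 35262 loci were lower by DESeq2 and 686 of 20561 with the replicate block. The cause was not tested. Differences of log2 ratios with libraries left out ranged from −0.16 to 0.22 for *Ccne1* to *Ccne2*, −0.66 to 0.22 for *Ccna1* to *Ccna2* and −0.11 to 0.080 for *Ccnb1* to *Ccnb2*. Deviations of libraries that share a number correlated at −0.24 over 20561 loci and at −0.39 over the 12755 above 5 CPM. With 2 libraries a group, these values cannot settle whether same-numbered libraries are pairs. A crossed replicate block, chosen after seeing the data, called 2 cyclins lower at an adjusted p of 0.05, among 304 loci lower and 246 higher. With 2 libraries a group, depth limits *Ccna1* most, at 15 to 33 counts.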

Other observations

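Of 17 other cyclins tested, 2 were lower at an unadjusted p under 0.05 in edgeR's quasi-likelihood test, against 5.37% of all tested loci. Their log2 fold changes ran from −0.65 to 0.18 with a median of −0.08, and 13 were negative. *Ccnyl1*, a cyclin Y-like gene, had 43.5 and 45.1 CPM in control and 35.2 and 38.5 CPM in Mps1sKO, a log2 fold change of −0.27 (SE 0.10, adjusted p = 0.513). *Ccno*, a cyclin known from multiciliated cells, had 4.53 and 5.34 CPM in control and 3.06 and 3.73 CPM in Mps1sKO, a log2 fold change of −0.54 (SE 0.20, adjusted p = 0.515). Both had lower values in both Mps1sKO libraries. *Cntd1*, a cyclin-like gene of meiotic crossover formation, had 2.56 and 3.64 CPM in control and 2.16 and 2.39 CPM in Mps1sKO, a log2 fold change of −0.45 (SE 0.25, adjusted p = 0.604).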
